A study of Mus musculus with 24 samples.

Results

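Interferon-stimulated genes are genes whose transcription is switched on by interferons, and 46 of them were followed here through RNA sequencing of treated mouse glioma cells and macrophages. The members were taken by symbol from a fixed list, and all 46 were found among the 21669 genes of the read-count table. The study placed 2 mouse cell lines in a migration assay in culture inserts and sequenced their RNA in 24 libraries. Each line had the same 5 groups. SWNT/CpG cells received carbon nanotubes (single-walled, SWNT) dispersed in the CpG-28 oligonucleotide, and CpG+SWNT/LP cells received that oligonucleotide together with nanotubes dispersed in a lipid-PEG (lipid-PEG2000-OMe, LP). CpG cells received the oligonucleotide alone, SWNT/LP cells the lipid-PEG nanotubes alone, and untreated cells received water. Every ingredient was at 10 µg/mL and was added after 24 h of adhesion. RAW-Blue cells are RAW mouse macrophages carrying a secreted phosphatase reporter for NF-kB and AP-1, and were treated for 47 to 50 h, with 2 libraries in each group. K-Luc cells are KR158B mouse glioma cells of C57BL/6 origin that express luciferase, and were treated for 17 to 19 h, with 2 untreated libraries and 3 in each other group. There was no group with a CpG-free oligonucleotide, and the CpG motif and DNA as such cannot be told apart. Treatment time differs between the lines, so that line and time cannot be told apart either. The labels do not say that replicates are separate cultures, so p-values measure a spread between libraries that may be technical.

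Type I interferons bind the IFNAR1 and IFNAR2 receptor chains, which act through the kinases JAK1 and TYK2 to bring STAT2 and IRF9 to a DNA element called the ISRE. Interferon gamma acts on a different element, GAS. In macrophages, unmethylated CpG DNA is sensed in endosomes by TLR9, whose adaptor MyD88 leads to NF-kB and to interferon regulatory factors such as IRF7. The proteins made in response include sensors of foreign nucleic acid, enzymes that block viral RNA and protein synthesis, GTPases that attack intracellular pathogens, and the ubiquitin-like protein ISG15 with the enzyme that removes it.

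Library totals were 13.3 to 24.1 M counts. RAW-Blue libraries had all 10 macrophage markers above 1 CPM (read counts per M counts of the library's effective size). K-Luc groups had 2 to 3 of these 10 and 5 to 6 of 10 glial markers with a group mean above 1 CPM. Vim, Nes, Sox2, Pdgfra and Cspg4 were present in K-Luc, and Olig2 was at 0 in every library. In K-Luc, Gfap reached at most 0.512 CPM and S100b at most 0.295, and Fabp7 had a median of 0.38 CPM. Vim (1556 to 1983 CPM) and Nes (10.3 to 24.9 CPM) were also present in RAW-Blue cells. The untreated RAW-Blue libraries stand apart from each other: a chi-square of their counts was 45.8 per gene, against 1.99 to 6.05 in the other RAW-Blue groups and 2.71 to 15.2 in K-Luc. Counts against untreated RAW-Blue cells are therefore given with and without each of them. The share of all genes called can move between such fits too, so a changed count is not by itself a change in the members. In K-Luc, replicate 1 of SWNT/CpG, of CpG+SWNT/LP and of untreated cells was sequenced in run 1, and every other library of the series in run 2. Run 1 thus has 1 library per group and gives no test, and counts from run 2 alone stand beside the K-Luc results. In K-Luc the members also differed by replicate number among libraries of run 2, which fitting by run does not adjust for. A gene was called higher or lower at an adjusted p under 0.05 in edgeR's quasi-likelihood F test over all genes of a line; values after ± are standard errors of log2 fold changes. In these bulk samples, fewer responding cells and less RNA per cell cannot be told apart.

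Promoter sequences are shown for the members with the largest and smallest called rises in RAW-Blue cells given SWNT/CpG, because the ISRE is where IRF9 binds. RefSeq promoters of build GRCm38.p6, from 250 bases before to 50 bases after a gene's start, were held for 35 of the 46 members. The counts were made on mm9, and no coordinates were moved between builds. Capitals mark an ISRE core, searched as GAAANNGAAA on either strand (TTTCNNTTTC on the other), or a GAS element, searched as TTCNNNGAA, which reads the same on both strands. Rsad2, which encodes viperin, has an ISRE core whose first base is at position −120 from the start. Ifit3 has such matches at −156 and −122. Bst2, which encodes tetherin, has ISRE cores at −130 and −124 that overlap each other and a GAS match at −136. Trim25 has no match to either in this window.
Rsad2, chr12:26456403-26456702, minus strand: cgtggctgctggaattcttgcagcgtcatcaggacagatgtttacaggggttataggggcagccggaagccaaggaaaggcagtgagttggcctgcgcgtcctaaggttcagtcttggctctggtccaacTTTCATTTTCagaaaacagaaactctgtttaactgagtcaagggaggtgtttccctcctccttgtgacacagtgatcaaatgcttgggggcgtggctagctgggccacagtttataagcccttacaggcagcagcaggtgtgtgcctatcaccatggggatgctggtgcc
Ifit3, chr19:34583279-34583578, plus strand: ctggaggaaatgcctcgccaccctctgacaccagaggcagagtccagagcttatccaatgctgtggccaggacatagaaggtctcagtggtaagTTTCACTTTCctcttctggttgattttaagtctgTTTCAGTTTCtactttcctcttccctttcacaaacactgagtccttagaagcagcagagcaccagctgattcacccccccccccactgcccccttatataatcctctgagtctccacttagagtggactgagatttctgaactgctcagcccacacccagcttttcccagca
Bst2, chr8:71537423-71537722, minus strand: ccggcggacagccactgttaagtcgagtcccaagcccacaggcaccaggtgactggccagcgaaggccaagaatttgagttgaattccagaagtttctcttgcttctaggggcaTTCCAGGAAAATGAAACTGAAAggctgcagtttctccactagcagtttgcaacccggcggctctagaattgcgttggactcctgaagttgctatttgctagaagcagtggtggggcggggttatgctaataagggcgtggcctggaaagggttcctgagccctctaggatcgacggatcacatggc
Trim25, chr11:88999153-88999452, plus strand: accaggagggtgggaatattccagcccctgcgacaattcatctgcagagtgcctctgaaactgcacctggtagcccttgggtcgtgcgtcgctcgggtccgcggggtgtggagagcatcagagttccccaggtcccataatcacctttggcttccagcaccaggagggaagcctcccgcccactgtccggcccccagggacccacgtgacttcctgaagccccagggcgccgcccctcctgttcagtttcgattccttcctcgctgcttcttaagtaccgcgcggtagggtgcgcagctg

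An ISRE core was found in at least 1 promoter of 19 of the 35 members (54.3%), against 3.99% of all 27025 genes with an entry. A GAS match was found in 9 of the 35 (25.7%), against 9.55% of all genes. In RAW-Blue cells given SWNT/CpG, the 17 tested members with an ISRE core had a median log2 fold change of 1.5 over untreated cells and 16 of them rose. The 16 tested members without one had a median of 1.14 and 13 of them rose. Both sets therefore held mostly members that rose, and these figures are a description without a test.

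In RAW-Blue macrophages, SWNT/CpG raised 37 of the 42 tested members over untreated cells and lowered none, where 23.2% of all tested genes were called in either direction and 12.8% were called higher. The median log2 fold change of the members was 1.48, and that of all genes was close to 0 (0.0023). All 42 members had both SWNT/CpG libraries above or below both untreated libraries, which held for 55.2% of all genes. Largest were Rsad2, Ifit3 and Rtp4, and the members that did not pass the test were Irf1, Stat2, Dtx3l, Parp9 and Ifi35. Ifi205, Mx1, Gbp5 and Iigp1 had too few counts to be tested. Without untreated replicate 1 the count of called members was 29, and without untreated replicate 2 it was 37. Under every alternative tried, 22 of the 37 calls held. The share of all genes called rose in both fits that left out an untreated library. The counts of called members from those fits are thus not by themselves a result about the members. Over all fits tried, the members' median log2 fold change was 1.34 to 1.75. Summed levels of 5 plasmacytoid dendritic cell markers were 6.00 to 7.11 CPM in SWNT/CpG libraries against 2.23 to 2.53 CPM in untreated libraries. That sum rests almost wholly on Cox6a2, which reached 7.11 CPM; of the 2 markers tested it was called higher and Siglech, at most 1.21 CPM in any RAW-Blue library, lower, while Klk1 was at 0. Their part in these results was not tested.

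**Figure D1:**
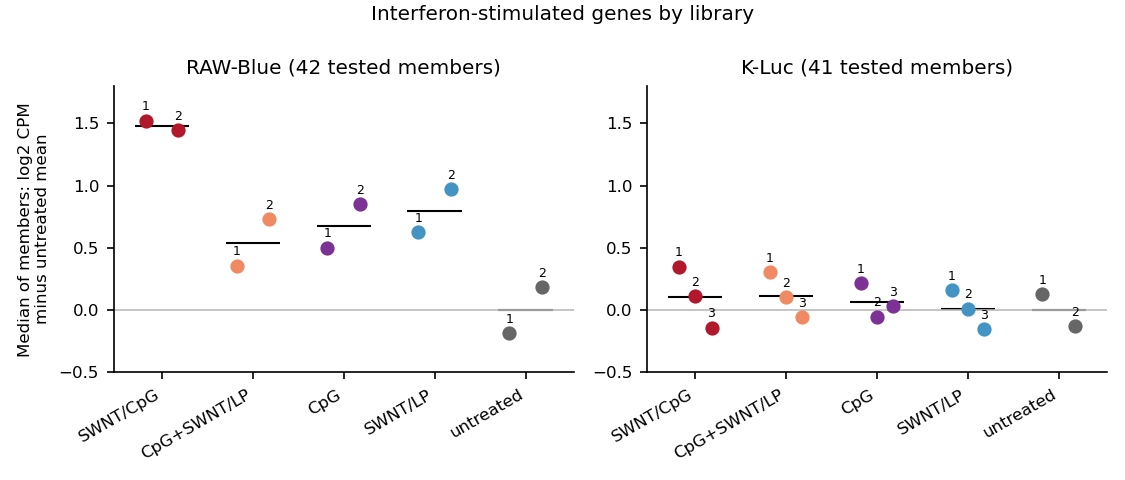
Median over the tested members of log2 CPM minus the untreated mean of the same line, with 1 point per library, with RAW-Blue (42 members) left and K-Luc (41 members) right. SWNT/CpG libraries of RAW-Blue cells lie at 1.52 and 1.44, above all other RAW-Blue libraries, while K-Luc libraries of every group lie between −0.15 and 0.35.

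Library by library, the members' median on this scale was 1.52 and 1.44 in SWNT/CpG cells. It was 0.36 and 0.73 in CpG+SWNT/LP cells, 0.50 and 0.85 in CpG cells, 0.62 and 0.97 in SWNT/LP cells, and −0.18 and 0.18 in untreated cells. The SWNT/CpG libraries were the highest of the line, the other treatments overlapped one another, and all treated libraries were above both untreated ones. In CpG+SWNT/LP, CpG, SWNT/LP and untreated cells replicate 2 was above replicate 1, with 38, 36, 41 and 33 of the 42 members above their own group's mean in replicate 2. In SWNT/CpG cells 12 were. Within either replicate number the order of the other treatments was SWNT/LP, then CpG, then CpG+SWNT/LP, and the part of the replicate number in the overlap between them was not tested.

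Among the transcription factors, Irf7 and Irf9 rose with SWNT/CpG and Irf1 and Stat2 did not pass the test. Irf7, which drives the second wave of interferon and interferon-stimulated gene transcription, had 38.4 and 44.7 CPM in SWNT/CpG cells. It had 11.5 and 22.0 CPM in CpG+SWNT/LP, 12.3 and 23.3 in CpG, 17.6 and 24.8 in SWNT/LP, and 7.53 and 8.74 in untreated cells. Both SWNT/CpG libraries were above all the rest, and the log2 fold change over untreated cells was 2.35 ± 0.36 (SE, adjusted p = 0.00218). Without untreated replicate 1 its adjusted p was 0.0584. Irf9, which binds the ISRE together with STAT2, had 46.4 and 40.7 CPM in SWNT/CpG cells, 24.0 and 29.0 in CpG+SWNT/LP, 25.5 and 35.3 in CpG, 30.2 and 38.8 in SWNT/LP, and 18.5 and 20.4 in untreated cells. Its SWNT/CpG and untreated libraries did not overlap (1.16 ± 0.18, adjusted p = 0.00174). Stat2, its partner, had 45.4 and 43.5 CPM in SWNT/CpG cells, 31.4 and 39.3 in CpG+SWNT/LP, 33.1 and 40.5 in CpG, 41.3 and 47.6 in SWNT/LP, and 36.2 and 40.4 in untreated cells. With a log2 fold change of 0.21 ± 0.13 (adjusted p = 0.282), it lay more than 1 log2 unit below the members' median. Irf1, a regulator best known for its response to interferon gamma, had 18.8 and 16 CPM in SWNT/CpG cells, 12.3 and 16.7 in CpG+SWNT/LP, 13 and 12.9 in CpG, 19.6 and 20.5 in SWNT/LP, and 21.9 and 21.4 in untreated cells. It was the member that ran against the rest, with every treated library below both untreated ones.

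All 6 tested nucleic acid sensors rose with SWNT/CpG, with a median log2 fold change of 1.5. They were Ifih1 (MDA5, 1.83 ± 0.18), Ddx58 (RIG-I, 1.40), Dhx58 (LGP2, 1.39), Eif2ak2 (PKR, 0.90), the DNA sensor Ifi204 (1.60) and Zbp1 (2.39 ± 0.33, adjusted p = 0.000786), which binds Z-form nucleic acid. Zbp1 was a low-level gene, with 2.95 and 2.30 CPM in SWNT/CpG cells and 0.399 and 0.579 CPM in untreated cells, and its other treated libraries reached at most 1.11 CPM. The calls of Ddx58 and Dhx58 were lost whichever of the 4 libraries was left out (adjusted p 0.0518 to 0.186), and that of Eif2ak2 without SWNT/CpG replicate 1 or 2 (0.0880 and 0.0903).

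All 5 oligoadenylate synthetase genes rose, with a median of 1.77. Oas1a (1.45 ± 0.15), Oas2 (1.77) and Oas3 (1.5) encode enzymes that make the messenger which activates RNase L. Without untreated replicate 1 the calls of Oas2 and Oas3 were lost (adjusted p 0.0717 and 0.11). Oasl1 encodes a relative without that activity, and Oasl2 is another gene of the family. Oasl1 had 70.7 and 61.8 CPM in SWNT/CpG cells, 48.8 and 53.9 in CpG+SWNT/LP, 33.7 and 37.6 in CpG, 30.8 and 38.1 in SWNT/LP, and 21.1 and 16.2 in untreated cells. Each treatment was above the untreated libraries, and SWNT/CpG was above the other treatments (1.83 ± 0.15 over untreated cells, adjusted p = 3.52e-05).

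Among the IFIT and Mx genes, whose products bind viral RNA or block viral particles, 4 of 4 tested members rose, with the highest median of the groups, 2.23. Ifit1 had 10.6 and 8.50 CPM in SWNT/CpG cells, 7.96 and 7.84 in CpG+SWNT/LP, 5.59 and 5.48 in CpG, 3.89 and 5.98 in SWNT/LP, and 1.83 and 2.05 in untreated cells. These libraries are ordered by treatment with overlap only between CpG and SWNT/LP, and the log2 fold change of SWNT/CpG was 2.29 ± 0.23 (adjusted p = 0.000115). Ifit3 rose by 2.84 ± 0.43 (adjusted p = 0.0013), Mx2 by 2.17 ± 0.58 (adjusted p = 0.0267) and Ifit2 by 1.13. Mx1 had 0.289 and 0.300 CPM in SWNT/CpG cells against 0.114 and 0.211 CPM in untreated cells and was not tested. The Mx2 call was lost without either SWNT/CpG library or without untreated replicate 1 (adjusted p 0.0722 to 0.0987).

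All 6 tested guanylate-binding and immunity-related GTPase genes rose, with a median of 1.23. The largest was Gbp2 (2.10 ± 0.50, adjusted p = 0.0133), at 0.867 and 0.6 CPM in SWNT/CpG cells against 0.114 and 0.211 CPM in untreated cells. It was followed by Gbp3 (1.77), Igtp (1.35), Irgm2 (1.11), Irgm1 (1.03) and Ifi47 (0.83). Gbp5 was below the filter, with 21 counts over the SWNT/CpG libraries and 0 over the untreated ones, at least 6.85-fold higher when the untreated total is set to 3 counts. Gbp2, Igtp and Irgm2 lost their calls without SWNT/CpG replicate 1 (adjusted p 0.0935, 0.0999 and 0.165), Irgm2 also without SWNT/CpG replicate 2 (0.138), and Gbp2 and Irgm2 without untreated replicate 1 (0.0666 and 0.131).

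The 4 genes of the ISG15 system, with Trim25, all rose. Isg15, a ubiquitin-like protein joined to other proteins or secreted, had 9.77 and 8.40 CPM in SWNT/CpG cells, 5.48 and 6.17 in CpG+SWNT/LP, 3.46 and 4.27 in CpG, 4.73 and 4.76 in SWNT/LP, and 1.83 and 1.95 in untreated cells. It had the smallest adjusted p of the members (2.26 ± 0.18, adjusted p = 3.01e-05). Usp18, which removes ISG15 and dampens receptor signalling, had 26.4 and 27.5 CPM in SWNT/CpG cells, 7.56 and 14.5 in CpG+SWNT/LP, 8.99 and 14 in CpG, 10.9 and 15.9 in SWNT/LP, and 5.99 and 5.58 in untreated cells. Its SWNT/CpG libraries were well above the other treatments, which overlapped one another (2.22 ± 0.32 over untreated cells, adjusted p = 0.00155). Herc6, a ligase that attaches ISG15 in mouse, rose by 0.89, a call lost without SWNT/CpG replicate 1 or 2 (adjusted p 0.0643 and 0.0648). Trim25, a ligase that acts with RIG-I, rose by 0.52 ± 0.08 (adjusted p = 0.0011), the smallest called change of the members.

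Of the PARP9, DTX3L and PARP14 genes, which encode an ADP-ribosyltransferase and ligase complex and a related enzyme, Parp14 rose (1.34, adjusted p = 0.0143). Its call was lost without untreated replicate 1 (adjusted p 0.136) and without SWNT/CpG replicate 1 or 2 (0.0762 and 0.0529). Parp9 (0.50, adjusted p = 0.072) and Dtx3l (0.27, adjusted p = 0.161) did not pass the test. Dtx3l had 70.1 and 70.8 CPM in SWNT/CpG cells and 55.1 and 62.0 CPM in untreated cells, and lay more than 1 log2 unit below the members' median.

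Of the 10 other effectors, 9 rose, with a median of 1.82. Rsad2, which makes a nucleotide that ends viral RNA chains, had 48.1 and 28.8 CPM in SWNT/CpG cells, 41.5 and 40.5 in CpG+SWNT/LP, 20.9 and 16.6 in CpG, 17.9 and 20.6 in SWNT/LP, and 3.99 and 4.84 in untreated cells. Every treated library exceeded both untreated ones, but SWNT/CpG overlapped CpG+SWNT/LP (3.11 ± 0.26 over untreated cells, adjusted p = 9.18e-05). Cmpk2, the neighbouring gene that encodes a mitochondrial nucleotide kinase, had 11.3 and 8.35 CPM in SWNT/CpG cells, 4.69 and 5.26 in CpG+SWNT/LP, 3.91 and 4.65 in CpG, 3.69 and 4.20 in SWNT/LP, and 2.28 and 2.00 in untreated cells. Unlike Rsad2, its SWNT/CpG libraries were above every other treatment (2.19 ± 0.21 over untreated cells, adjusted p = 8.19e-05). Trim30a had 40.2 and 37.9 CPM in SWNT/CpG cells, 17.6 and 21.2 in CpG+SWNT/LP, 20.6 and 22.6 in CpG, 19.4 and 21.9 in SWNT/LP, and 12.2 and 15.4 in untreated cells (1.5 ± 0.14, adjusted p = 7.03e-05). Its other treatments were close together and well below SWNT/CpG. Rtp4 rose by 2.72 ± 0.39 (adjusted p = 0.00152), Xaf1 by 2.26, Ifi44 by 2.13, Samd9l by 1.17, Sp100 by 1.01 and Bst2 by 0.80. Ifi35 was at 0.49 (adjusted p = 0.0679). The call of Ifi44 was lost without untreated replicate 1 (adjusted p 0.0572), and that of Samd9l, at 13.7 and 35.1 CPM in untreated cells, without SWNT/CpG replicate 1 or 2 (0.148 and 0.0734).

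**Figure D2:**
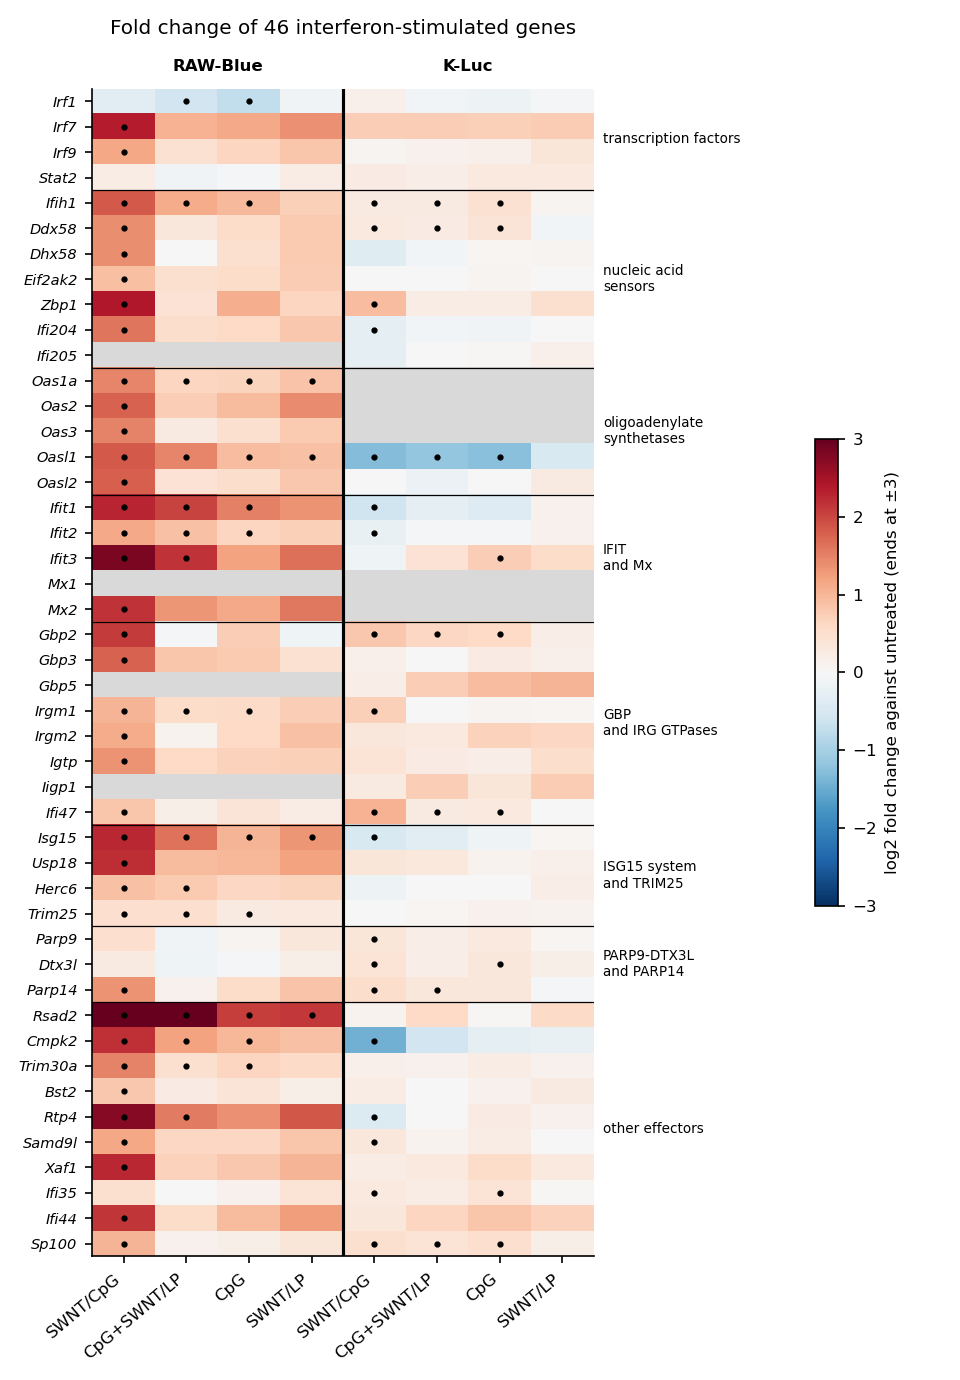
Log2 fold change over untreated cells of the same line for the 46 members, in rows grouped by role, and the 4 treatments in RAW-Blue (left) and K-Luc (right) cells; colour ends at −3 and 3, dots mark an adjusted p under 0.05 and grey marks members not tested. The RAW-Blue SWNT/CpG column holds 37 dots, all higher, and the K-Luc SWNT/CpG column holds 12 higher and 7 lower.

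The unjoined treatments raised fewer members. CpG+SWNT/LP raised 14 and lowered 1 of 42 members in RAW-Blue cells, where 20.3% of all tested genes were called (10.1% higher and 10.1% lower), with a members' median of 0.53. In 23 members the libraries of the groups did not overlap, against 52.9% of all genes. Rsad2 was highest, at 3.21 ± 0.26 (adjusted p = 0.000119), followed by Ifit3 at 2.17 and Ifit1 at 2.02 (adjusted p = 0.000386). Oasl1 rose by 1.46 (adjusted p = 0.000184) and Isg15 by 1.62 (adjusted p = 0.000382). Irf1 fell by 0.57 on the log2 scale (SE 0.14, adjusted p = 0.0189), and its adjusted p was 0.136 without CpG+SWNT/LP replicate 1. Ifih1, Oasl1, Ifit1, Isg15, Rsad2 and Cmpk2 were called under every alternative tried. Leaving out untreated replicate 1 gave 12 called members, leaving out untreated replicate 2 gave 17, leaving out replicate 2 of CpG+SWNT/LP gave 9, and fitting the compared groups alone gave 7.

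CpG alone raised 11 and lowered 1 of 42 members in RAW-Blue cells, where 10.8% of all tested genes were called (5.18% higher and 5.6% lower), with a members' median of 0.64. In 28 members the libraries of the groups did not overlap, against 48.7% of all genes. Rsad2 rose by 2.08 ± 0.27 (adjusted p = 0.00231), Ifit1 by 1.51 (adjusted p = 0.00423) and Isg15 by 1.03 (adjusted p = 0.0102). Oasl1 rose by 0.94 (adjusted p = 0.00422) and Ifih1 by 0.96 (adjusted p = 0.0128). Irf1 fell by 0.74 on the log2 scale (SE 0.14, adjusted p = 0.0111), and its adjusted p was 0.0738 without CpG replicate 1 and 0.0847 without CpG replicate 2. Rsad2 and Ifit1 were called under every alternative tried. The count of called members was 3 without CpG replicate 2, 11 without untreated replicate 1, 16 without untreated replicate 2, and 2 with the compared groups alone in the fit.

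SWNT/LP, which holds no oligonucleotide, raised 4 of 42 members in RAW-Blue cells, where 0.478% of all tested genes were called (0.434% higher and 0.0434% lower). They were Rsad2 (2.12 ± 0.27, adjusted p = 0.0165), Isg15 (1.33 ± 0.19, adjusted p = 0.018), Oasl1 (0.89 ± 0.15, adjusted p = 0.038) and Oas1a (0.86 ± 0.15, adjusted p = 0.0426). The members' median was 0.79, and in 41 of 42 members the SWNT/LP and untreated libraries did not overlap, against 39.5% of all genes. This count depended on single libraries: it was 0 without either SWNT/LP library, 6 without untreated replicate 1 and 21 without untreated replicate 2. It was 14 with DESeq2, 8 without the filter on low counts and 0 with the compared groups alone in the fit. The share of all genes called in these alternative fits is not given here.

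Taking the 4 treatments side by side in RAW-Blue cells, which share their untreated libraries, Isg15, Oas1a, Oasl1 and Rsad2 were called higher in each. Another 7 members were called higher in the 3 treatments that hold the oligonucleotide: Cmpk2, Ifih1, Ifit1, Ifit2, Irgm1, Trim25 and Trim30a. A further 23 were called with SWNT/CpG and with no other treatment, among them Irf7, Irf9, Usp18, Xaf1 and Zbp1. A call with one treatment and not another is no test between them. In the direct tests that follow, only Zbp1 and Sp100 of these 23 were called against CpG+SWNT/LP, and none against CpG. SWNT/CpG was not tested against SWNT/LP. The largest log2 fold change was that of SWNT/CpG in 40 of 42 members; Rsad2 had its largest with CpG+SWNT/LP, and Irf1, negative throughout, was nearest to 0 with SWNT/LP.

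Whether these treatments differ was tested directly. CpG+SWNT/LP holds the oligonucleotide and nanotubes unjoined, and also lipid-PEG, which SWNT/CpG lacks. In either line, joining and the lipid-PEG cannot be told apart in this comparison. SWNT/CpG exceeded CpG+SWNT/LP in 5 of 42 members with none lower, where 0.825% of all genes were called and 0.469% were called higher. They were Trim30a (1.01 ± 0.13, adjusted p = 0.0233), Zbp1 (1.96 ± 0.31, adjusted p = 0.0302), Oas1a (0.82, adjusted p = 0.0431), Cmpk2 (0.98, adjusted p = 0.0445) and Sp100 (0.88, adjusted p = 0.0466). The members' median was 0.79, and the log2 fold change of Rsad2 was −0.10. In 38 members the libraries did not overlap, against 54.6% of all genes. Without replicate 1 of either group or SWNT/CpG replicate 2 no member was called, and without CpG+SWNT/LP replicate 2 the count was 1. It was 16 with DESeq2 and 22 with the compared groups alone in the fit.

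SWNT/CpG exceeded CpG alone in 5 of 42 members with none lower, where 0.842% of all genes were called and 0.669% were called higher. They were Isg15 (1.23 ± 0.16, adjusted p = 0.0182), Trim30a (0.86, adjusted p = 0.0307), Cmpk2 (1.19, adjusted p = 0.0307), Oasl1 (0.89, adjusted p = 0.0307) and Oas1a (0.79, adjusted p = 0.0397). The members' median was 0.84 and the 2 groups' libraries did not overlap in any of the 42 members, against 55.4% of all genes without overlap. No member was called without either CpG library or without SWNT/CpG replicate 1, and 3 were called without SWNT/CpG replicate 2. The count was 14 with DESeq2, 10 without the filter and 24 with the compared groups alone in the fit. Between CpG+SWNT/LP and CpG no member was called in RAW-Blue cells by edgeR, with 6 at an unadjusted p under 0.05 and 1 called by DESeq2; 0.13% of all genes were called and the members' median was −0.06. In 10 members the libraries did not overlap, against 42.5% of all genes.

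**Figure D3:**
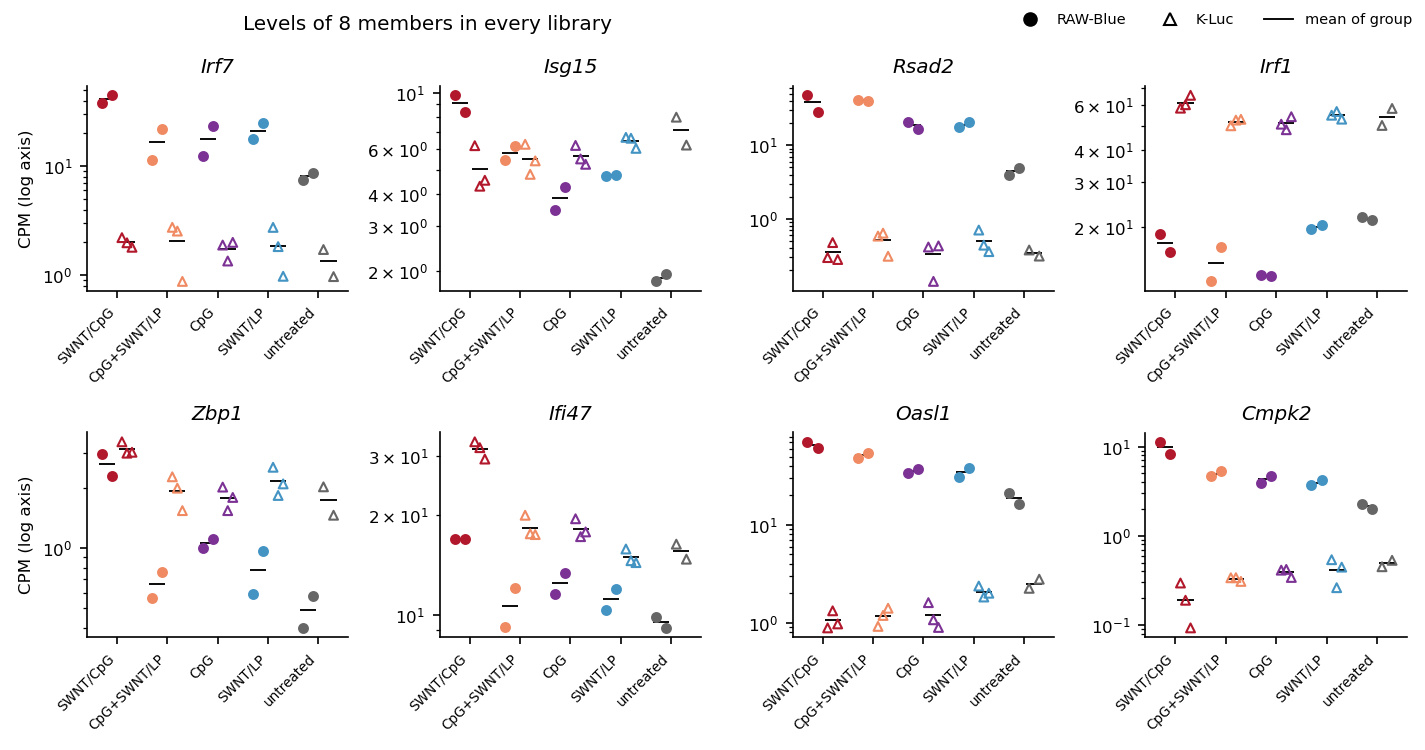
CPM on a log axis of Irf7, Isg15, Rsad2, Irf1, Zbp1, Ifi47, Oasl1 and Cmpk2 in each library, circles for RAW-Blue and triangles for K-Luc, by treatment with untreated cells at the right; lines are group means. Isg15 reached 9.77 CPM in RAW-Blue SWNT/CpG cells against at most 1.95 CPM in untreated ones, while in K-Luc SWNT/CpG cells it was at 4.31 to 6.20 CPM against 6.24 and 8.02 CPM in untreated ones.

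In K-Luc glioma cells the same genes did not move as one module. SWNT/CpG raised 12 and lowered 7 of 41 tested members, where 43.1% of all tested genes were called (21.8% higher and 21.3% lower), and the members' median log2 fold change was 0.21. With all libraries in the fit, the members' share called, 46.3%, was thus near that of all genes. In 22 members the libraries of the groups did not overlap, against 56.4% of all genes. Within run 2 alone, 8 were called higher and 5 lower. Replicate 1 had the highest members' median, in log2 CPM minus the untreated mean, in every K-Luc group. For replicates 1, 2 and 3 that median was 0.22, −0.05 and 0.03 in CpG cells, all of run 2. In SWNT/LP cells, also all of run 2, it was 0.16, 0.01 and −0.15. Replicate 3 was lowest in SWNT/CpG, CpG+SWNT/LP and SWNT/LP cells. Untreated cells have no replicate 3, so the part of replicate number in calls against them was not fully tested. Oas1a, Oas2, Oas3, Mx1 and Mx2 were below the filter. The share of all genes called fell with either untreated library left out. When replicate 2 was the one left out, called members fell more in proportion than called genes as a whole. Without untreated replicate 2, the only untreated library of run 2, the count of called members was 4: Ifi47, Gbp2, Irgm1 and Oasl1, which were called under every alternative tried. Summed levels of 7 fibroblast and vessel markers, mostly Col1a1, were 7908 to 8796 CPM in SWNT/CpG cells against 4166 to 5348 CPM in untreated cells. They were 6651 to 7335 CPM in CpG+SWNT/LP, 6817 to 7906 in CpG and 3941 to 5370 in SWNT/LP cells. The part of these markers in the results was not tested.

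Ifi47, an interferon-gamma-induced GTPase, had 33.2, 31.8 and 29.4 CPM in SWNT/CpG cells, 20.0, 17.6 and 17.5 in CpG+SWNT/LP, 19.5, 17.2 and 17.8 in CpG, 15.8, 14.6 and 14.4 in SWNT/LP, and 16.3 and 14.7 in untreated cells. SWNT/CpG libraries were well above all others, and the log2 fold change over untreated cells was 1.05 ± 0.08 (adjusted p = 4.28e-08). Irgm1, a GTPase of the same family, had 73.8, 72.6 and 76.8 CPM in SWNT/CpG cells, 50.0, 41.6 and 44.2 in CpG+SWNT/LP, 50.9, 43.7 and 43.7 in CpG, 55.8, 40.7 and 41.3 in SWNT/LP, and 53.1 and 40.7 in untreated cells. Its groups other than SWNT/CpG overlapped (0.72 ± 0.13 for SWNT/CpG over untreated cells, adjusted p = 0.000521). Gbp2 had 12.8, 14.7 and 12.4 CPM in SWNT/CpG cells, 11.8, 12.5 and 10.6 in CpG+SWNT/LP, 12.4, 10.9 and 11.3 in CpG, 9.98, 8.46 and 8.19 in SWNT/LP, and 7.12 and 7.92 in untreated cells. Every library given the oligonucleotide was above every one that was not (0.81 ± 0.12 for SWNT/CpG over untreated cells, adjusted p = 8.39e-05). In all, 3 of 8 tested GTPase genes rose and none fell.

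All 3 genes of the PARP9, DTX3L and PARP14 group rose with SWNT/CpG in K-Luc cells: Parp14 by 0.53 (adjusted p = 0.00313), Dtx3l by 0.42 and Parp9 by 0.36. Among the 7 tested sensors, Zbp1 rose by 0.92 ± 0.21 (adjusted p = 0.00182), Ddx58 by 0.30 and Ifih1 by 0.27, while Ifi204 fell by 0.30 (SE 0.08, adjusted p = 0.00541). Zbp1 had 3.40, 2.98 and 3.01 CPM in SWNT/CpG cells against 2.02 and 1.46 CPM in untreated cells, without overlap. Of the other effectors, Samd9l (0.35), Sp100 (0.48) and Ifi35 (0.29) rose.

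The 7 members lowered by SWNT/CpG in K-Luc cells were all among those called higher in the macrophages, where 37 of 42 tested members were. Oasl1 had 0.886, 1.32 and 0.973 CPM in SWNT/CpG cells, 0.918, 1.19 and 1.41 in CpG+SWNT/LP, 1.61, 1.07 and 0.896 in CpG, 2.37, 1.83 and 2.00 in SWNT/LP, and 2.25 and 2.79 in untreated cells. Libraries given the oligonucleotide all lay below those that were not, and the log2 fold change of SWNT/CpG was −1.30 ± 0.25 (adjusted p = 0.000643). Isg15 had 6.20, 4.31 and 4.54 CPM in SWNT/CpG cells, 6.28, 4.79 and 5.41 in CpG+SWNT/LP, 6.22, 5.5 and 5.25 in CpG, 6.69, 6.63 and 6.06 in SWNT/LP, and 8.02 and 6.24 in untreated cells. Its SWNT/CpG and untreated ranges nearly touched (−0.45 ± 0.12, adjusted p = 0.00765). Ifit1 had 11.6, 11.9 and 8.57 CPM in SWNT/CpG cells, 14.6, 13.1 and 12.5 in CpG+SWNT/LP, 13.6, 11.2 and 10.7 in CpG, 17.5, 19.8 and 13.4 in SWNT/LP, and 17.2 and 15.8 in untreated cells (−0.61 ± 0.16, adjusted p = 0.00716). Cmpk2, at 0.0927 to 0.295 CPM in SWNT/CpG cells against 0.450 and 0.531 CPM in untreated cells, fell by 1.43 on the log2 scale (SE 0.50, adjusted p = 0.03). Ifit2 (−0.21 ± 0.06, adjusted p = 0.0133) and Rtp4 (−0.41 ± 0.15, adjusted p = 0.0379) were also lower. Apart from Oasl1, each of these calls was lost without untreated replicate 2 (adjusted p 0.0985 to 0.467).

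None of the regulators passed the test against untreated K-Luc cells under any treatment. Irf7 had 2.22, 1.99 and 1.81 CPM in SWNT/CpG cells, 2.75, 2.54 and 0.880 in CpG+SWNT/LP, 1.89, 1.35 and 2.00 in CpG, 2.75, 1.83 and 0.980 in SWNT/LP, and 1.72 and 0.973 in untreated cells. The treated groups' log2 fold changes were alike, at 0.73, 0.73, 0.71 and 0.76, and SWNT/CpG was the treatment whose libraries did not overlap the untreated ones. Irf1 had 58.5, 60.3 and 65.7 CPM in SWNT/CpG cells, 49.9, 52.5 and 52.9 in CpG+SWNT/LP, 50.6, 48.2 and 54.2 in CpG, 54.9, 56.8 and 53.0 in SWNT/LP, and 50.1 and 58.3 in untreated cells. Its SWNT/CpG libraries were the highest of the line, narrowly above an untreated one (0.16 ± 0.06, adjusted p = 0.0524). Irf9 had 10.6 to 13.1 CPM in SWNT/CpG cells, 11.3 to 14 in CpG+SWNT/LP, 10.4 to 12.6 in CpG, 12.2 to 15.8 in SWNT/LP, and 10.4 and 12.8 in untreated cells. Stat2 had 33.9 to 40.8 CPM in SWNT/CpG cells, 31.6 to 41.9 in CpG+SWNT/LP, 30.9 to 40.6 in CpG, 28.6 to 46.9 in SWNT/LP, and 28.7 and 35.8 in untreated cells. Usp18 stayed near 1 CPM, with 0.579 to 1.18 CPM over all K-Luc libraries. For these 3 genes all groups overlapped.

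CpG+SWNT/LP raised 6 and lowered 1 of 41 members in K-Luc cells, where 33.9% of all tested genes were called (16.1% higher and 17.8% lower), and the libraries of 10 members did not overlap, against 50.1% of all genes. Gbp2 rose by 0.61 (adjusted p = 0.00154), Ifih1 by 0.27, Ddx58 by 0.24, Ifi47 by 0.26, Sp100 by 0.42 and Parp14 by 0.34, and Oasl1 fell by 1.16 on the log2 scale (SE 0.24, adjusted p = 0.00181). With replicate number as a block, which compares libraries of the same number, 12 were called higher and 2 lower, and within run 2 alone 1 higher and 1 lower. The count was 4 with DESeq2, 2 without the run term and 12 with the compared groups alone. Leaving out untreated replicate 1 gave 3 called members, leaving out untreated replicate 2 gave 1 (Gbp2), and leaving out replicate 1 or 2 of CpG+SWNT/LP gave 3. CpG alone raised 8 and lowered 1, where 36.2% of all genes were called (17.9% higher and 18.4% lower), and the libraries of 12 members did not overlap, against 53.4% of all genes. Ifih1 rose by 0.46 (adjusted p = 0.000857), Ddx58 by 0.38, Gbp2 by 0.59, Ifi35 by 0.40 and Ifit3 by 0.73, and Oasl1 fell by 1.24 on the log2 scale (SE 0.25, adjusted p = 0.00138). Within run 2 alone 4 were called higher and 1 lower, and without untreated replicate 2 the count was 2. It was 5 without the run term and 5 with the compared groups alone. Oasl1 had adjusted p = 0.0614 for CpG+SWNT/LP and 0.0684 for CpG without that library. SWNT/LP called none of the 41 members by edgeR or by DESeq2, with 4 at an unadjusted p under 0.05, a median of 0.14, and 0.129% of all genes called (0.0886% higher and 0.0403% lower). In 4 members the libraries did not overlap, against 15.6% of all genes. Against untreated cells, then, Ddx58, Gbp2, Ifi47, Ifih1 and Sp100 were called higher and Oasl1 lower in the 3 treatments with the oligonucleotide, which share their untreated libraries.

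Set against CpG+SWNT/LP in K-Luc cells, SWNT/CpG raised 4 and lowered 3 of 41 members, where 17.7% of all genes were called (8.54% higher and 9.12% lower), and the libraries of 8 members did not overlap, against 28.8% of all genes. The members' share called, 17.1%, was near that of all genes. Ifi47 (0.78, adjusted p = 7.72e-07), Irgm1 (0.73, adjusted p = 0.000393), Zbp1 (0.70, adjusted p = 0.00746) and Irf1 (0.25 ± 0.05, adjusted p = 0.00436) were higher, and Ifit2, Ifi204 and Rtp4 were lower by 0.18 to 0.40. With replicate number as a block 9 were called higher and 6 lower, within run 2 alone 4 higher and none lower, and without CpG+SWNT/LP replicate 1 or SWNT/CpG replicate 3 the count was 4. It was also 4 without the run term, and 11 with the compared groups alone. Set against CpG alone, SWNT/CpG again raised Ifi47 (0.74, adjusted p = 2.6e-06), Irf1 (0.31, adjusted p = 0.00126), Irgm1 (0.64, adjusted p = 0.00152) and Zbp1 (0.70, adjusted p = 0.0115), where 14.9% of all genes were called (7.29% higher and 7.58% lower). In 9 members the libraries did not overlap, against 30.3% of all genes. Rtp4 (−0.65, adjusted p = 0.00311) and Ifit3 (−0.85, adjusted p = 0.0099) were lower. The share of members called, 14.6%, was again near that of all genes. With the block 10 were called higher and 5 lower, and within run 2 alone 4 higher and 2 lower. Without SWNT/CpG replicate 3 the adjusted p of Ifit3 was 0.0694. Both comparisons share the SWNT/CpG libraries. Between CpG+SWNT/LP and CpG no member was called by edgeR or DESeq2, with 3 at an unadjusted p under 0.05 and 0.266% of all genes called (0.0564% higher and 0.209% lower). In 2 members the libraries did not overlap, against 7.32% of all genes.

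The response to SWNT/CpG differed between the lines in 24 of 45 tested members, 23 with a higher response in RAW-Blue and 1 with a lower one, where 25.4% of all tested genes were called (14.4% higher and 11.1% lower). Gbp5, with 0 counts in untreated RAW-Blue cells, was tested in this fit and is 1 of the 23 (adjusted p = 0.00413), but its fitted difference is no bound and is not given. Isg15 had the smallest adjusted p, with a response 2.71 ± 0.21 log2 units higher in RAW-Blue (adjusted p = 4.09e-09). Oasl1 was 3.13 higher (adjusted p = 1.6e-07), Ifit1 2.89 (adjusted p = 2.3e-07), Ifit2 1.34 (adjusted p = 1.83e-07), Ifi204 1.90 (adjusted p = 6e-06) and Ifih1 1.56 (adjusted p = 1.45e-06). Irf1 was the exception, with a response lower by 0.48 ± 0.14 (difference −0.48, adjusted p = 0.0142), and its adjusted p was 0.102 without RAW-Blue SWNT/CpG replicate 2. Of the 24 calls, 17 held under every alternative tried. The share of all genes called rose with either RAW-Blue untreated library left out and fell with either K-Luc one left out. A changed count of members in such fits is thus not by itself a result about them. Over all fits tried, the members' median difference was 1.23 to 1.63. Within run 2 alone 19 members were called, all higher in RAW-Blue. Without RAW-Blue untreated replicate 1 the count was 22 and without replicate 2 it was 28.

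**Figure D4:**
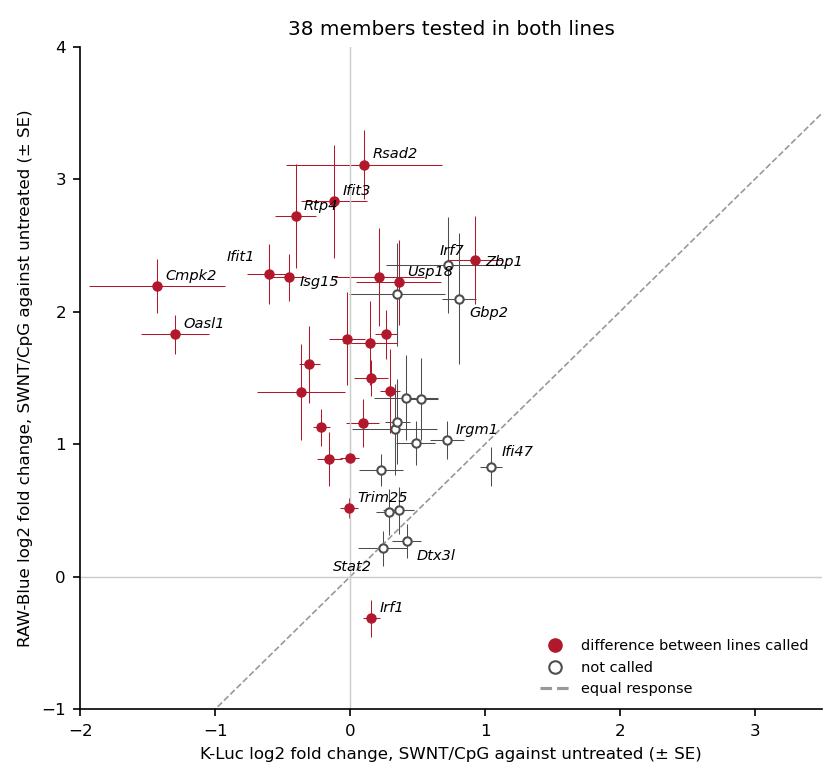
Log2 fold change of SWNT/CpG over untreated cells in RAW-Blue (vertical axis) against K-Luc (horizontal axis) for the 38 members tested in both lines, with standard errors; the dashed line marks equal responses and the 23 filled points are members whose difference between lines was called. Isg15, Oasl1, Ifit1 and Cmpk2 lie left of 0 and well above it, while Ifi47 and Irgm1 lie close to the dashed line.

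Of the 12 members called higher in K-Luc, 9 were also among the 37 called higher in RAW-Blue, which is 75% of the K-Luc list and 24.3% of the RAW-Blue list: Ddx58, Gbp2, Ifi47, Ifih1, Irgm1, Parp14, Samd9l, Sp100 and Zbp1. The other 3, Dtx3l, Ifi35 and Parp9, did not pass the test in RAW-Blue. All 7 members called lower in K-Luc, Cmpk2, Ifi204, Ifit1, Ifit2, Isg15, Oasl1 and Rtp4, were called higher in RAW-Blue. Of all 42 members tested in RAW-Blue, 88.1% were called higher, so these overlaps do not set either list apart. Ifi47 and Irgm1 rose in both lines, with differences of −0.22 and 0.31 between them that did not pass the test. For CpG alone the response differed in 6 of 45 members, 5 higher in RAW-Blue and 1 lower, where 21.9% of all genes were called (11.3% higher and 10.6% lower). Oasl1 (2.16), Ifit1 (1.88), Isg15 (1.15), Ifit2 (0.67) and Herc6 (0.62, adjusted p = 0.0388) had the higher response in RAW-Blue, and Irf1 the lower one (−0.61, adjusted p = 0.00473). Within run 2 alone 4 were called higher and 1 lower. The count was 5 without RAW-Blue untreated replicate 1, 11 without replicate 2, and 2 with the compared groups alone in the fit.

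In untreated cells, 19 members were higher and 20 lower in RAW-Blue than in K-Luc of 45 tested, where 77.9% of all genes were called (37% higher and 40.9% lower), so that the members' share is near that of all genes. In 40 members the untreated libraries of the lines did not overlap, against 82.6% of all genes. Oas1a, Oas2 and Oas3 had 399, 799 and 1989 counts over the untreated RAW-Blue libraries and 2, 3 and 1 counts over the untreated K-Luc libraries. The ratio for Oas1a was 200 with a 95% counting interval of 54.9 to 1653, which leaves out the spread between libraries. Trim25 was 2.41 log2 units higher in RAW-Blue (adjusted p = 8.26e-18), Oasl1 2.73, Bst2 2.17 and Dtx3l 1.26. In the other direction, Gbp2 was at −5.47, Ifi204 at −3.13, Ifit1 at −2.98, Ifit2 at −2.59 (adjusted p = 1.75e-16), Isg15 at −1.69, Herc6 at −1.67 and Irf1 at −1.36. By role, 4 of 5 oligoadenylate synthetase genes and all 3 of the PARP9, DTX3L and PARP14 group were higher in RAW-Blue, while 6 of 8 GTPase genes and 3 of 4 tested IFIT and Mx genes were higher in K-Luc. Oas1a, Oas2, Oas3 and Mx2 passed the filter through RAW-Blue libraries alone, and Gbp5, Iigp1 and Ifi205 through K-Luc libraries alone. Counts that include these members were partly set by the filter and are a description. Within run 2 alone 18 were higher and 18 lower. Without RAW-Blue untreated replicate 1 the count was 37, and without replicate 2 it was 38.

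Per length of transcript, on the authors' RPKM scale, Bst2 and Trim25 were the most abundant members in untreated RAW-Blue cells, at 48.3 and 48.2 and at 40.9 and 39.0 RPKM. In untreated K-Luc cells Irgm1 was highest, at 16 and 12.2 RPKM, followed by Bst2 at 14.8 and 12.3 and Ifit2 at 13.3 and 13.2. Those K-Luc levels overlap, so their order is not resolved. The members' median level was 1.93 RPKM in RAW-Blue and 1.45 RPKM in K-Luc, and 26 and 25 of 46 members were at 1 RPKM or more.

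The genes that make and carry the interferon signal were counted from lists chosen with earlier results known. With SWNT/CpG, 23.2% of all tested genes were called in RAW-Blue cells, 31.8% without untreated replicate 1 and 51% without untreated replicate 2. In K-Luc cells it was 43.1%, with 32.5% and 22%. Interferon genes themselves were near 0: Ifnb1 had 6 counts over all RAW-Blue libraries and 2 over all K-Luc libraries. Of 5 tested ligand and receptor genes, none rose and 3 fell in RAW-Blue cells given SWNT/CpG: the receptor chains Ifnar2 (−0.40), Ifngr1 (−0.36) and Ifngr2 (−0.26). These 3 calls held with either untreated library left out. In K-Luc cells given SWNT/CpG 4 of 5 rose, led by Ifngr2 at 0.39, and 3 and 2 without untreated replicate 1 and 2. The difference between lines was called for Ifngr2 (−0.66, adjusted p = 2.04e-05), Ifngr1 (−0.65) and Ifnar2 (−0.61), also without any 1 of the 4 untreated libraries.

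A list of JAK-STAT genes and their feedback inhibitors also held other genes, such as Irf2bp2 and Prmt1. Of this list, 6 of 17 rose and 2 fell in RAW-Blue cells given SWNT/CpG. The inhibitors Cish (3.70, adjusted p = 0.00354) and Socs3 (1.08, adjusted p = 0.000194) and the factor Stat3 (0.40) rose, and Irf2bp2, a corepressor, fell by 0.53. Without untreated replicate 1 the counts were 7 and 3, and without replicate 2 they were 7 and 4. In K-Luc cells 6 of 18 rose and 2 fell, among them Cish (1.05), Socs2 (0.80) and Stat3 (0.42), which rose, and Prmt1, which fell by 0.43. Without untreated replicate 2 there were 1 and 1, with Cish at adjusted p = 0.0565 and Stat3 at 0.0592, and this list's share of calls in K-Luc is near that of all genes. Of the genes that sense nucleic acid upstream of interferon, 7 of 31 rose and 4 fell in RAW-Blue cells, among them Irak3 (1.94), a brake on Toll-like receptor signalling, and the kinase Ikbke (1.36). Without untreated replicate 1 the counts were 8 and 8, and without replicate 2 they were 13 and 8. In K-Luc cells 9 of 26 rose and 2 fell, with the feedback inhibitor Tnfaip3 (0.82) and Ikbke (0.56) among those that rose, and 6 rose and 2 fell with either untreated library left out; this share too is near that of all genes. Tlr9, named after its values were seen, averaged 19.0 CPM in SWNT/CpG cells and 16.2 CPM in untreated cells of RAW-Blue (0.23, adjusted p = 0.132), and had 0 to 3 counts per group in K-Luc.

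Other interferon-stimulated genes outside the 46 members were counted in the same way. In RAW-Blue cells given SWNT/CpG 42 of 78 rose and 2 fell, with a median log2 fold change of 0.57; Gbp7 (2.86), the chemokine Ccl5 (2.45), Ifitm6 (1.02) and Nlrc5 (0.92) were among those that rose. Without untreated replicate 1, 45 of 81 rose and 3 fell, and without replicate 2, 55 rose and 5 fell. Of 74 such genes tested in K-Luc cells, SWNT/CpG raised 20 and lowered 10, with a median of 0.13, near the share of all genes called. Without untreated replicate 1, 14 rose and 8 fell, and without replicate 2, 10 rose and 6 fell. Uba7 (1.31), the enzyme that activates ISG15, and Tapbp (0.88), which helps load peptides on MHC class I, rose, and Slfn9 (−0.65) and Pnpt1 (−0.46) fell.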

How the data were processed

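Libraries were prepared from polyadenylated RNA of 24 samples with a kit that keeps strand. The authors' tools, per the submitters' processing notes, were TopHat2 2.0.14 and HTSeq 0.6.0 on mm9. Annotation and strand setting were not given in the sources used here, so overlapping and antisense genes cannot be told apart. Close paralogs (the Oas1, Ifit3, Ifi204, Trim30, Gbp and Irgm families) may share reads, and their values are uncertain to that extent. The deposited table holds raw read counts for 21669 genes. A second deposited table holds RPKM values, which the authors rounded to 1 decimal; it served for levels between genes, and over 1370 genes its ratio to RPKM implied by the counts was 0.938 to 1.10.

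Testing used edgeR 4.0.16 in R 4.3.3: TMM scaling, filterByExpr by group (minimum count 10, minimum total 15) and the robust quasi-likelihood F test. P-values were adjusted by Benjamini and Hochberg's method across every gene tested, and a gene was called at an adjusted p under 0.05. For K-Luc, 14 libraries and 12420 genes were fitted by group and run, leaving 8 residual degrees of freedom. For RAW-Blue, 10 libraries and 11514 genes were fitted by group, leaving 5. Both lines together, with 13350 genes, were fitted by group and run, leaving 13. Biological coefficients of variation were 0.0513 (K-Luc) and 0.0859 (RAW-Blue). CPM levels use TMM library sizes, and standard errors come from the log2 fold change and its F statistic. Ratios of low counts carry exact 95% counting intervals, and a floor is 3 counts over a group; both cover counting error only. Library totals were 13.3 to 24.1 M counts.

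Replicate numbers paired the K-Luc libraries: in 26 of 26 same-numbered pairs, deviations from the group means correlated by over 0.1 (0.224 to 0.696). In RAW-Blue this held for 4 of 20 pairs (−0.164 to 0.365). With 2 libraries in each RAW-Blue group both replicate numbers give the same correlation, so each value is counted for both numbers. Blocked counts therefore stand beside K-Luc results where they move a count by over 1.5 times. Per-library values are given for up to 6 called members per direction with the smallest adjusted p in a comparison and for Irf1, Irf7, Irf9, Stat2, Isg15 and Usp18, and up to 4 genes of each pathway list are named. A member departs from the module when called against the sign of the median or over 1 log2 unit from it. The members and lists were chosen with earlier results of these data known. As alternatives, results were recomputed with DESeq2 1.42.0, with DESeq2 size factors inside edgeR, with library totals in place of TMM, without the filter, with a replicate block, without the run term, within run 2, with the compared groups alone, and leaving out each library. Leaving out each untreated library for the pathway lists was added after the data were seen.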

Additional observations from a re-analysis of the deposited data

Results flagged for a closer look

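Members were picked out here because their response to a treatment, relative to untreated cells, differed between RAW-Blue and K-Luc in a test of the difference itself, taking up to 6 in each direction. For SWNT/CpG the response was higher in RAW-Blue than in K-Luc by 2.71 log2 units for Isg15, 3.13 for Oasl1, 1.34 for Ifit2, 2.89 for Ifit1, 1.56 for Ifih1 and 1.90 for Ifi204. Irf1 ran the other way, with a difference of −0.48. For CpG alone it was higher in RAW-Blue by 2.16 for Oasl1, 1.88 for Ifit1, 1.15 for Isg15, 0.67 for Ifit2 and 0.62 for Herc6, and the difference for Irf1 was −0.61. The lines also differ in treatment time, so that line and time cannot be told apart, and both tests of a line share its untreated libraries.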

How the results depend on the processing

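Counts of called members follow for the alternatives that moved them by over 1.5 times, with each count's range when 1 library is left out. Beyond the smaller number of libraries there, the cause was not tested. The share of all genes called can move in these fits too and is not given here. A changed count is therefore not by itself a result about the members. In K-Luc cells, CpG+SWNT/LP against untreated (7 members) gave 4 with DESeq2, 14 with the replicate block, 2 without the run term, 2 in run 2 alone, 12 with only the compared groups in the fit, and 1 to 8 with each library left out. CpG against untreated (9) gave 5 without the run term, 5 in run 2 alone, 5 with only the compared groups, and 2 to 11 with a library left out. SWNT/CpG against untreated (19) gave 4 to 17 with a library left out. SWNT/CpG against CpG+SWNT/LP (7) gave 15 with the block, 4 without the run term, 4 in run 2 alone, 11 with only the compared groups, and 4 to 6 with a library left out. SWNT/CpG against CpG (6) gave 15 with the block and 4 to 6 with a library left out.

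In RAW-Blue cells, SWNT/CpG against untreated (37) gave 27 to 37 with a library left out. CpG+SWNT/LP against untreated (15) gave 7 with only the compared groups and 9 to 17 with a library left out, and CpG against untreated (12) gave 2 and 3 to 16. SWNT/LP against untreated (4) gave 14 with DESeq2, 8 without the filter, 7 with the block, 0 with only the compared groups and 0 to 21 with a library left out. SWNT/CpG against CpG+SWNT/LP (5) gave 16 with DESeq2, 15 with the block, 22 with only the compared groups and 0 to 1 with a library left out. SWNT/CpG against CpG (5) gave 14 with DESeq2, 10 without the filter, 13 with the block, 24 with only the compared groups and 0 to 3 with a library left out. CpG+SWNT/LP against CpG (0) gave 1 with DESeq2 and 2 with only the compared groups. Of the same-numbered RAW-Blue pairs, 4 of 20 correlated by over 0.1, which cannot show that replicate numbers are unpaired. With the block the other counts were 38 for SWNT/CpG, 19 for CpG+SWNT/LP and 17 for CpG against untreated.

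Between lines, the response to CpG (6) gave 10 with the block, 2 with only the compared groups and 5 to 11 with a library left out. The response to SWNT/CpG (24) gave 19 to 28, and untreated RAW-Blue against K-Luc (39) gave 34 to 38, with a library left out. Over all called members and alternatives, 2391 values were computed: 2047 kept their direction and call, 344 kept their direction but lost the call, and none reversed. Where a group is left with 1 library, that library is assumed to vary like the other groups. Members at or below 3 counts in a group, such as Oas1a, Oas2 and Oas3 in untreated K-Luc cells, have no fitted fold change printed, and groups of 2 or 3 libraries limit what the tests can call.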
